A study of Drosophila melanogaster with 2 samples.

Results

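MicroRNA genes were examined in a map of Medea occupancy in Drosophila melanogaster embryos. The members were all genes of the Ensembl BDGP6.54 annotation with a hairpin precursor transcript or a symbol that starts with mir-. This rule gave 262 of 17873 annotated genes, of which 260 lay on the 6 main chromosome arms and 2 on an unplaced contig that was not scored. Medea, encoded by Med, is the fly's common-mediator Smad and acts in the Dpp (BMP) and activin pathways. Whole embryos of both sexes, aged 0 to 24 h, came from a transgenic line in which Med carries eGFP at its C terminus. Chromatin bound by the fusion was pulled down through its GFP tag. Fragments were 200 to 800 bp long. The 1 group held 2 biological replicates, numbered 2 and 3, so there was no contrast between conditions. The data are lists of peaks, from which neither read depth nor the cell types of the embryos could be checked, and in whole embryos occupancy in few cells and weak occupancy in many cannot be told apart.

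A microRNA (miRNA) is cut from a longer primary transcript in 2 steps, by Drosha with its partner Pasha in the nucleus and by Dicer-1 with Loquacious in the cytoplasm. The mature strand is loaded into Argonaute 1 and finds target messenger RNAs mainly through its seed, bases 2 to 8. The promoter of a miRNA is that of its primary transcript, which can be a protein-coding host gene or a non-coding RNA and can start far from the hairpin, so occupancy was scored both at hairpins and at the starts of host transcripts.

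The mature strands below belong to loci described in the following paragraphs, and the capitals mark the seed. They were read from the RefSeq annotation of the Release 6 assembly, in which all 260 scored hairpins had a mature sequence. Those of miR-279 and miR-996 come from 1 host transcript and share a seed, as do those of miR-92a and miR-92b within jigr1. miR-276a and miR-276b share a seed but come from separate hosts, of which the first had a summit at its start and the second had none. The last 2 strands, of let-7 and miR-124, belong to loci without a summit within 5000 bp.
miR-279-3p: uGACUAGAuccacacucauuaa
miR-996-3p: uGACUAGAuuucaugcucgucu
miR-92a-3p: cAUUGCACuugucccggccuau
miR-92b-3p: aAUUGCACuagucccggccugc
miR-276a-3p: uAGGAACUucauaccgugcucu
miR-276b-3p: uAGGAACUuaauaccgugcucu
bantam-3p: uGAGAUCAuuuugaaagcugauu
miR-282-5p: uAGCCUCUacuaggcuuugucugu
miR-275-3p: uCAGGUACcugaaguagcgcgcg
miR-375-3p: uUUGUUCGuuuggcuuaaguua
miR-34-5p: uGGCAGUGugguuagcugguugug
let-7-5p: uGAGGUAGuagguuguauagu
miR-124-3p: uAAGGCACgcggugaaugccaag

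Hairpins on the same arm and strand with at most 10000 bp between neighbours were counted as 1 locus, which gave 203 loci. Of these, 181 held a single hairpin and 22 held 79 hairpins between them, with 12 in the largest. At least 1 hairpin lay inside another gene on the same strand in 156 loci. All hairpins lay outside genes in 28 loci, called intergenic here, and the other 19 overlapped genes on the opposite strand only. By single hairpins, 136 had a protein-coding host, 46 a non-coding host only, 51 none, and 27 an opposite-strand gene only. The hairpins of mir-iab-4 and mir-iab-8 overlap on opposite strands, as do those of mir-307a and mir-307b, and all were counted as separate loci. The median hairpin was 92 bp long.

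Most miRNA hairpins had no Medea summit close by. In the authors' reproducible list of 5867 peaks, 30 of 203 loci had a summit within 1000 bp of a hairpin, 14.8% (95% Wilson interval 10.6 to 20.3). Of all possible placements of a hairpin-sized window on the main arms, 8.21% had one. Within 5000 bp, 90 loci had a summit, 44.3% (37.7 to 51.2), against 28.8% of placements. At both distances the interval of the loci lay above the share of placements in this list. The shares at 1000 bp lay below those of other short non-coding RNAs. Of tRNA, snoRNA and snRNA genes 21.2% had a summit, against 13.5% of hairpins each counted. After joining neighbours in the same way, 27.0% of their loci had one, against 14.8% of miRNA loci. These sets were not matched for distance to protein-coding genes' starts.

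The replicates gave different shares at 1000 bp and similar ones at 5000 bp. Each replicate was scored with as many of its strongest peaks as the reproducible list held, called its top list here. At 1000 bp replicate 2 had a summit at 23 loci, 11.3% (7.67 to 16.4), against 8.24% of placements, so with replicate 2 alone the interval covered the background. Replicate 3 had one at 35 loci, 17.2% (12.7 to 23.0), against 8.16%. At 5000 bp they had 43.8% (37.2 to 50.7) against 29.3% and 43.3% (36.7 to 50.2) against 28.1%. The 19 loci with a summit of both replicates within 1000 bp made up 82.6% of the replicate 2 loci and 54.3% of the replicate 3 loci.

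Nearness to promoters of protein-coding genes moved with these shares. Among the 58 loci with a hairpin within 1000 bp of a protein-coding transcription start site (TSS), 20 had a summit within 1000 bp, 34.5% (23.6 to 47.3), against 23.7% of placements equally near a TSS. Among the 145 loci farther away, 10 had one, 6.90% (3.79 to 12.2), against 4.11% of such placements. Both intervals included the background share. Summits more than 1000 bp from every protein-coding TSS, called distal here, lay within 1000 bp of 12 loci, 5.91% (3.41 to 10.0), against 3.21% of placements. Among loci with a single hairpin the distal share was 4.97% (2.64 to 9.18), and that interval included the background share. All 12 loci with a distal summit had a host gene, as did 156 of all 203 loci.

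Intergenic loci had a summit within 1000 bp in 6 of 28 cases, 21.4% (10.2 to 39.5), against 6.22% of intergenic placements. With the top list of replicate 2 alone this fell to 2 loci, 7.14%, so the share rested on replicate 3. Of the 6 loci, mir-314 and mir-956 shared a peak. Among intergenic loci within 1000 bp of a protein-coding TSS, 5 of 11 had a summit, 45.5% (21.3 to 72.0), against 23.7% of all placements equally near. Among those farther away it was 1 of 17, 5.88% (1.05 to 27.0), against 4.11%. Both intervals included the background share. None of the 28 had a distal summit within 1000 bp, 0% (0 to 12.1), and that interval included the 3.21% of all placements. It also overlapped that of loci with a host, 7.69% (4.45 to 13.0). Each of the 6 intergenic loci had a summit within 1000 bp of the TSS of a protein-coding gene, among them CG14762, PIG-K and Muc68D. Loci with a host had a summit in 21 of 156 cases, 13.5% (8.98 to 19.7), against 9.13% of placements inside genes. Loci with a protein-coding host (12.1%) and those with a non-coding host only (18.8%) had overlapping intervals.

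**Figure D1:**
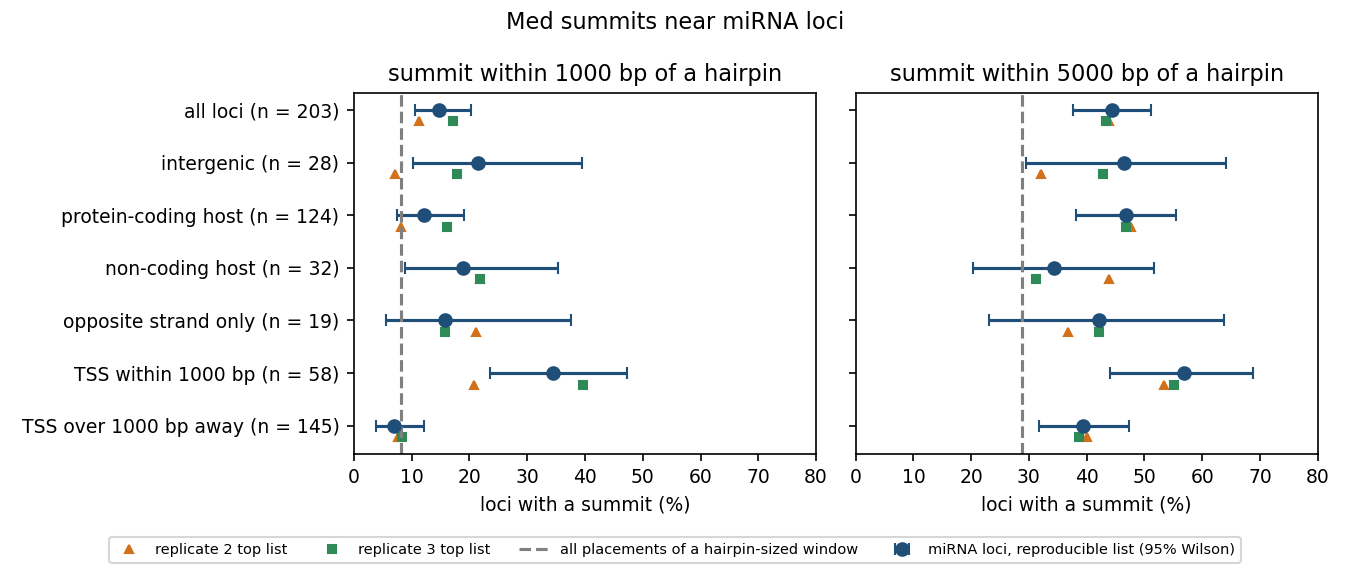
Share of miRNA loci, in percent, with a Medea summit within 1000 bp (left) or 5000 bp (right) of a hairpin, by class of locus. Circles are the reproducible list with 95% Wilson intervals, triangles and squares the top lists of replicates 2 and 3, and the dashed line the share of all placements of a hairpin-sized window; loci within 1000 bp of a protein-coding TSS sit at 34.5% on the left and those farther away at 6.90%.

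The loci near a summit were led by mir-92a, whose hairpin lies in an intron of jigr1 at chr3R:25646506-25646600. A peak of signal 1362, the authors' value per peak on a scale not given in the sources used here, had its summit 425 bp downstream of the hairpin and 221 bp from a TSS of jigr1. It measured 670 in replicate 2 and 693 in replicate 3. The related mir-92b, in the same locus, had a weak peak 797 bp downstream, of signal 175, with 59.6 in replicate 2 and 106 in replicate 3. The second strongest peak, of signal 1223 (558 and 670), lay 853 bp upstream of mir-4981 and 641 bp from a TSS of CG14762.

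Several of the strongest summits lay upstream of hairpins and away from protein-coding starts. At mir-282 (chr3L:3251022-3251118, in an exon of the non-coding RNA CR43626) a peak of signal 830 lay 742 bp upstream, with 474 in replicate 2 and 359 in replicate 3. The clustered hairpins mir-275 and mir-305 (mir-275 at chr2L:7425795-7425892) had a peak of 628, with 239 and 375, at 437 bp upstream of mir-275. At mir-375 (chr2L:857542-857632) a peak of 465 lay 715 bp upstream, with 184 and 279, and a peak of 234 lay 699 bp downstream. The nearest protein-coding TSS was 1356 bp or more from each of these 4 summits.

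Of the other loci among the strongest 12, 5 had a protein-coding host, mir-8 a non-coding host, and mir-2496 no host. Upstream peaks were found at mir-966 in Pfas (signal 470; 159 in replicate 2 and 305 in replicate 3), at mir-4985 in Fatp3 (408; 169 and 223) and at mir-2491 in fog (404; 194 and 209). The gene fog encodes a secreted signal that drives apical constriction at gastrulation. The peaks at mir-308 in RpS23, a ribosomal protein gene (386; 128 and 259), and at mir-4949 in ATPsynC, which encodes a subunit of ATP synthase (386; 108 and 275), lay 6 and 22 bp from the host's TSS. At mir-8, which acts in insulin and Wingless signalling, the peak 808 bp upstream had signal 345 (137 and 250), and at the intergenic mir-2496 a peak of 343 (233 and 118) lay 686 bp upstream. In 10 of these 12 loci, all but mir-282 and mir-2496, replicate 3 had the higher value, as at most peaks of the series.

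**Figure D2:**
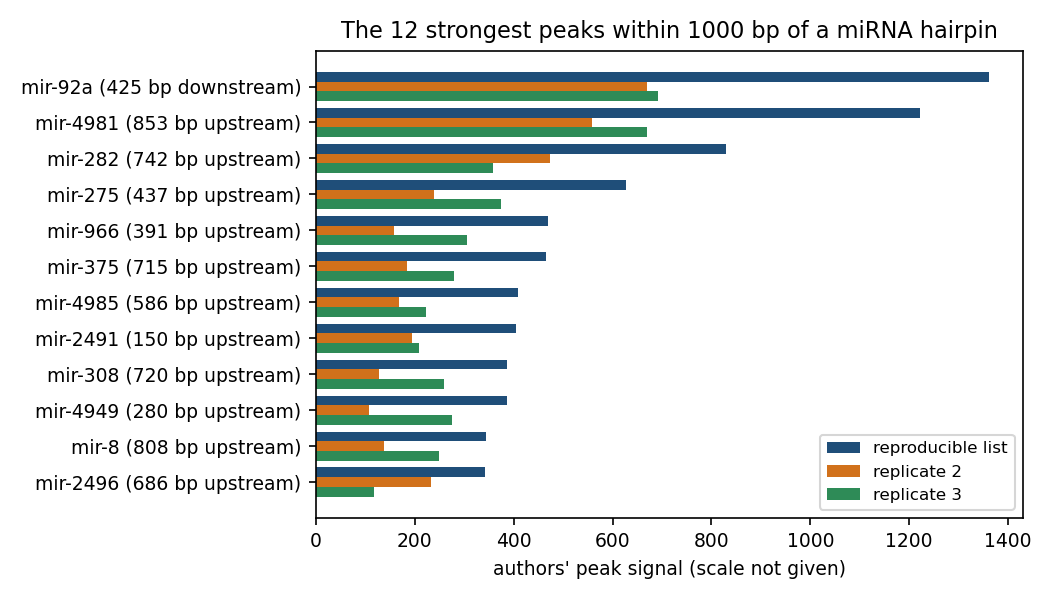
Signal (horizontal axis, the authors' value, scale not given) of the 12 strongest peaks within 1000 bp of a miRNA hairpin in the reproducible list and of the strongest overlapping peak of each replicate. Labels give the hairpin nearest the summit and its distance; mir-92a leads with 1362, 670 and 693, and replicate 2 is above replicate 3 at mir-282 and mir-2496.

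The other loci with a summit within 1000 bp had peaks between 167 and 343. They were mir-9377 in Tis11, mir-9378 in CG17124, mir-995 in Cdk2, the mir-317, mir-277 and mir-34 locus, the cluster with mir-982 and mir-303, mir-14, mir-4957, mir-2501 in Nulp1, mir-4962 in Tlk, mir-314, mir-956, mir-994 with mir-318, mir-980, mir-4975, mir-4968 in Mob2, mir-9370 in Amun, mir-3645 in Mlc-c, and mir-11182. The loci mir-314 and mir-956 shared 1 peak. At mir-34, known in flies for its part in ageing of the brain, a peak of 319 lay 141 bp upstream and 7547 bp from any protein-coding TSS, with 80.8 in replicate 2 and 219 in replicate 3. The summit lay inside the hairpin at mir-4962 and mir-11182 only, and both peaks were weak. That of mir-4962 (211; 22.6 in replicate 2 and 178 in replicate 3) was not in the top list of replicate 2. That of mir-11182 (167; 58.6 and 100) was in neither top list and lay 5 bp from a protein-coding TSS. The loci just inside the limit were mir-4981 at 853 bp, mir-14 at 874 bp and mir-956 at 965 bp. Those just outside were mir-4942 at 1042 bp and mir-2493 at 1079 bp.

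In all, 33 peaks lay within 1000 bp of a hairpin. Their median signal was 305, against 282 for all peaks, and 60.6% lay within 1000 bp of a protein-coding TSS, against 62.3% of all peaks. By these measures they resembled the peak list as a whole. Of the 33 summits, 23 lay upstream of the nearest hairpin, 8 downstream and 2 inside. The replicates differed more: 33.3% of the peaks were in the top list of replicate 3 only, against 17.6% of all peaks, and 6.06% in that of replicate 2 only, against 13.4%. The median log2 ratio of replicate 3 to replicate 2 was 0.77 over the 31 peaks matched in both (range -0.98 to 2.97), against 0.33 (SD 0.75) over 5553 matched peaks. For mir-2501 and mir-4968, no peak of replicate 2 overlapped.

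Around the 5′ ends of loci, summits were more frequent upstream than downstream. Within 5000 bp there were 94 summits upstream, at 66 loci, and 53 downstream, at 45 loci. The difference lay in loci with a host, with 77 upstream and 37 downstream. Intergenic loci had 11 upstream and 12 downstream. Upstream of a hosted hairpin also lies the start of its host, and no test of this asymmetry was made.

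**Figure D3:**
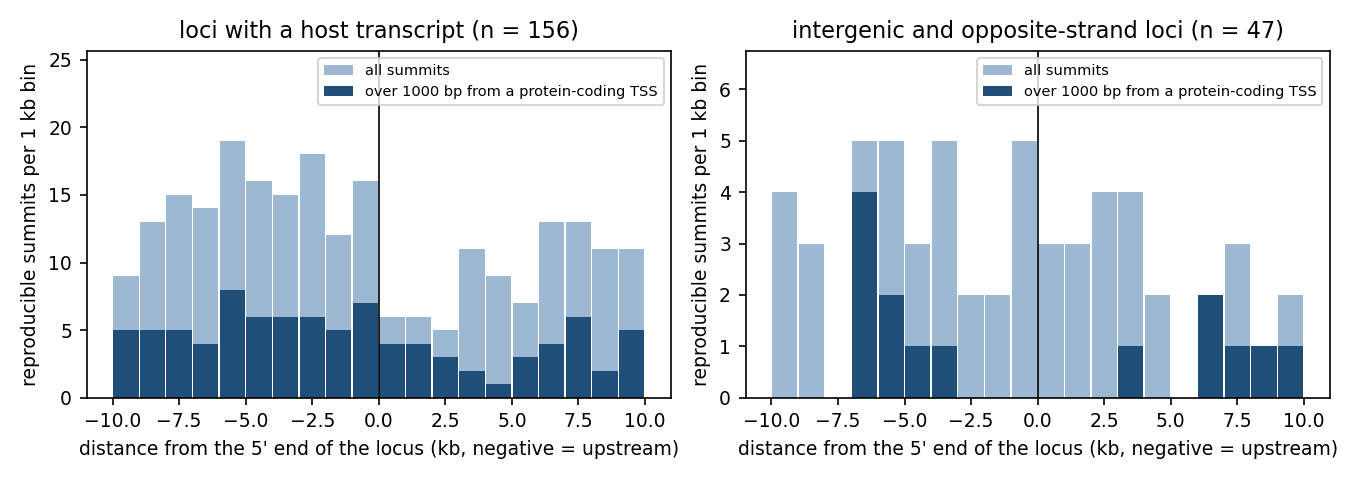
Number of reproducible summits per 1 kb bin by distance from the 5′ end of each miRNA locus in kb (negative is upstream), for 156 loci with a host transcript and 47 without. Dark bars are summits over 1000 bp from every protein-coding TSS; hosted loci have 77 summits in the 5000 bp upstream and 37 in the 5000 bp downstream.

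The annotated starts of non-coding host transcripts, the primary transcripts of many miRNAs, were scored in the same way. Of 37 such hosts, 14 were occupied, meaning that a summit lay within 1000 bp of any annotated TSS, 37.8% (24.1 to 53.9), against 14.0% (12.7 to 15.4) of the 2483 non-coding RNA genes that host no miRNA. With distal summits only, the shares were 35.1% and 5.28%. With the top list of replicate 2 alone they were 24.3% (13.4 to 40.1) and 13.5%, with overlapping intervals, and with that of replicate 3 alone 43.2% and 14.1%. Hosts more often had several TSSs. Among genes with 1 TSS the shares were 30.4% (15.6 to 50.9) of 23 hosts and 13.5% (12.2 to 14.9) of the others, and among those with more they were 7 of 14 (26.8 to 73.2%) and 24.3% (17.4 to 32.9).

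The strongest of these peaks lay at the start of CR31044, the host of mir-279 and mir-996, of which the former limits the formation of carbon dioxide-sensing neurons. It ranked 41 of the 5867 peaks with signal 2729, and measured 1020 in replicate 2 and 1719 in replicate 3. Its summit lay 112 bp from the TSS, 5722 bp from any protein-coding TSS and 1135 bp upstream of mir-279 (chr3R:29215585-29215684), just past the limit of 1000 bp. The host start of bantam, a miRNA that promotes growth and blocks cell death, had a peak of 539 (235 and 305) whose summit lay 994 bp from the nearest annotated start of CR43334 and 1500 bp upstream of the hairpin (chr3L:642208-642288). A weaker peak, of signal 195 and led by replicate 3 (26.3 in replicate 2 and 145 in replicate 3), had its summit 2426 bp upstream of the hairpin and nearer to that start. The strongest peak within 5000 bp of bantam, of signal 735 (310 and 430), lay 2011 bp downstream, past the end of the host. A start of CR43650, the host of mir-8, had a peak of 476 (187 and 284), separate from the one near the hairpin. The latter also lay within 1000 bp of an annotated start of CR43650.

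A further group of starts had peaks that were in the top lists of both replicates. They were those of the hosts of mir-281-1 and mir-281-2 (395; 155 and 244), mir-275 (349; 143 and 199), mir-4951 (Hsromega, a heat-shock-inducible nuclear RNA; 345; 161 and 180) and mir-14, a miRNA of cell survival and fat metabolism (290; 129 and 169). The mir-281 summit lay 819 bp from a TSS of Oda, the only one of the 14 within 1000 bp of a protein-coding TSS. The peaks of mir-282 and mir-375, described above, were also host-start peaks.

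The other 5 starts were weak and carried mainly by replicate 3. They belonged to the hosts of mir-184 (215), mir-276a (185), mir-bft, also called mir-263a (185), mir-10 (185) and mir-993 (166). The last 2 lie in the Antennapedia complex of Hox genes. Their values were 36.4 to 55.6 in replicate 2 and 102 to 150 in replicate 3, and none was in the top list of replicate 2. The peak of mir-bft was not in the top list of replicate 3 either. The mir-10 summit lay 97 bp from the TSS of CR42651 but 6894 bp from the hairpin, and the mir-bft summit 113 bp from the TSS of CR43314 but 17478 bp from the hairpin, so the reproducible list had no summit within 5000 bp of either hairpin.

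**Figure D4:**
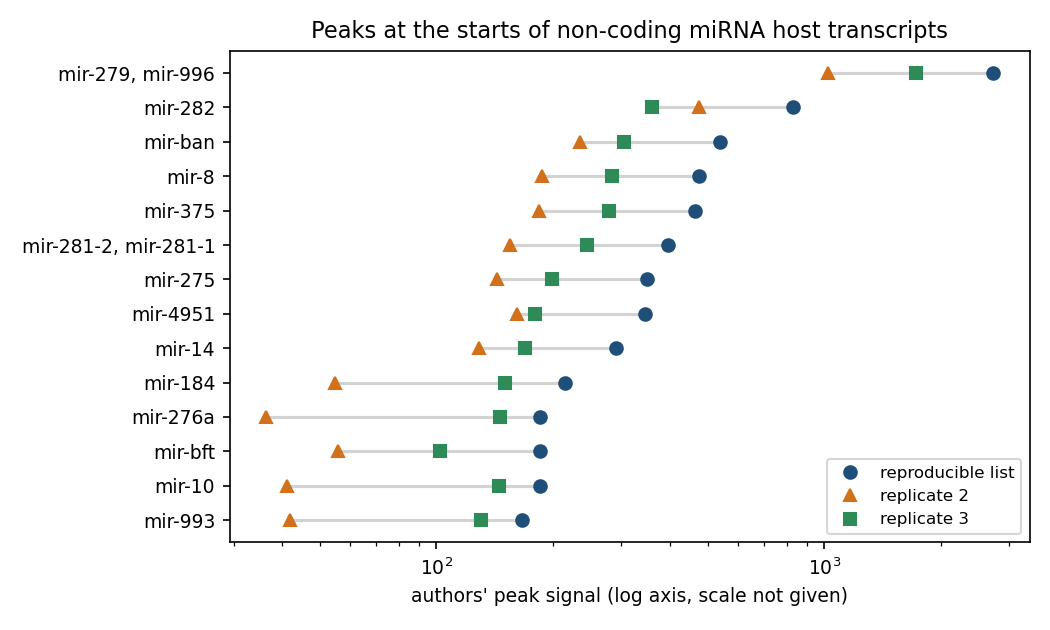
Signal on a log axis (the authors' value, scale not given) of the peak at the start of each of the 14 occupied non-coding host transcripts, labelled by their miRNAs and ordered by signal. Circles are the reproducible list, triangles replicate 2 and squares replicate 3; mir-279 with mir-996 leads at 2729, and in the 5 lowest rows replicate 2 lies between 36.4 and 55.6.

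The sequences at 3 of these summits are shown for the strongest start, a start with Smad boxes and a replicate 3-led start, on the plus strand, which is also that of the hosts. Capitals mark GTCT, the Smad box, or its complement AGAC. The windows are chr3R:29214400-29214500 for CR31044, chr3L:3250230-3250330 for CR43626 and chr3L:10363917-10364017 for CR46006.
CR31044 (mir-279, mir-996): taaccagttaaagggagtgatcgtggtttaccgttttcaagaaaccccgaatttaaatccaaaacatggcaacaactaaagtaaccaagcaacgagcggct
CR43626 (mir-282): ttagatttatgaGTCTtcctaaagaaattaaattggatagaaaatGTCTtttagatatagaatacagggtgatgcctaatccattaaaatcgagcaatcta
CR46006 (mir-276a): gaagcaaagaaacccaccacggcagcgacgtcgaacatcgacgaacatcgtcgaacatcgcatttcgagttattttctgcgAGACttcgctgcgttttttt

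The strongest window held no GTCT on either strand, that of mir-282 held 2 and that of mir-276a held 1. In windows that reached 50 bp to either side of the summit, GTCT on either strand was found in 15 of 33 peaks near hairpins, 45.5% (29.8 to 62.0), and in 6 of 14 at host starts, 42.9%, against 32.0% of all peaks. The GC-rich forms GACGNC or GGCGNC, bound by Mad, were found in 18.2% and 35.7% (16.3 to 61.2), against 12.9%. The letters GAGAG, bound by GAGA factor, were found in 9.09% and 28.6% (11.7 to 54.6), against 11.3%. CAGGTA, bound by Zelda, was in 1 and 0 windows, TATCGATA in 2 and 0, and neither GTCTAGAC nor the silencer element bound by Mad, Medea and Schnurri in any. Among all peaks the shares were 2.27% for CAGGTA, 3.36% for TATCGATA, 0.119% for GTCTAGAC and 0.0682% for the silencer element. With shares this low, so few windows cannot show a lack of these motifs. GTCT and GTCTAGAC overlap, as do the silencer element and the GC-rich forms.

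The other 23 non-coding hosts had no summit within 1000 bp of a start in the reproducible list. They include those of let-7 with mir-100 and mir-125, which time the larval to adult transition, of mir-1, the muscle miRNA, of mir-124, the neuronal miRNA, and of the mir-309 cluster, which helps clear maternal messenger RNA. In the reproducible list the nearest summit lay 5414 bp from the let-7 hairpin, 22879 bp from mir-1, 16738 bp from mir-124 and 8128 bp from mir-309. The overlapping Hox cluster hairpins mir-iab-4 and mir-iab-8 had theirs at 8871 bp, but in the top list of replicate 2 a summit of signal 70.9 lay 854 bp away, while that of replicate 3 had none nearer than 8878 bp. For mir-9a, which limits sense organ precursors, a strong peak of 834 (445 and 404) lay 4350 bp upstream, beyond its annotated host transcript and within 1000 bp of the start of another non-coding RNA, CR44676. A weaker summit 2481 bp upstream of mir-9a (signal 121), close to the annotated start of its host, was in the top list of replicate 3 only.

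Among 28 well known miRNA genes, chosen by name, 5 had a summit within 1000 bp of the hairpin (mir-8, mir-14, mir-34, mir-92a and mir-282) and 14 within 5000 bp, 11 upstream and 3 downstream. With every hairpin counted in the same way, 13.5% of all 260 had a summit within 1000 bp and 42.7% within 5000 bp. Clustered hairpins were not joined here: mir-279 and mir-996 shared a peak, as did mir-998 and mir-11. Besides those described, the nearest peak to mir-33 lay 3520 bp upstream within its host SREBP, a regulator of lipid synthesis, and within 1000 bp of TSSs of SREBP, CG42637 and Gyc76C (460; 190 and 277). The nearest peak to the hairpins mir-998 and mir-11, in the cell-cycle gene E2f1, lay 2454 and 3072 bp downstream, outside E2f1 and 104 bp from a TSS of InR, the insulin receptor gene (625; 271 and 359). A weaker peak inside E2f1 lay 4664 and 4114 bp upstream of them (202; 36.3 and 166). The others beyond 5000 bp in the reproducible list included mir-7 at 15299 bp, mir-133 at 21957 bp, mir-184 at 7838 bp and mir-278 at 22104 bp. For some of the 28 the top list of replicate 2 alone held a nearer summit: at 972 bp for mir-278 (signal 66.3), 2758 bp for mir-7 (67.1), 2585 bp for mir-10 (67.5), 3329 bp for mir-bft and 7548 bp for mir-1 (75.0). The nearest summits of replicate 3 at these 5 lay between 6876 and 39750 bp away. The reverse was also seen: the top list of replicate 3 held a summit 622 bp from bantam (signal 106), 385 bp from mir-14 (118) and 2481 bp from mir-9a (121). The nearest summits of replicate 2 there lay at 1469, 787 and 4350 bp.

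Protein-coding hosts were occupied at a start in 65 of 128 cases, 50.8% (42.2 to 59.3), against 31.3% of all 13945 protein-coding genes. Hosts had more starts, with a median of 2 against 1. Among genes with 1 or 2 TSSs the shares were 40.7% (30.9 to 51.3) and 28.5%, and among those with 3 or more 71.4% (56.4 to 82.8) and 62.3%. In the latter the interval of the hosts covered the share of all genes.

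Genes of the miRNA pathway were also occupied at their starts in most cases: the count was 12 of 19, 63.2% (41.0 to 80.9), against the same 31.3%. This comparison does not take the number of TSSs into account. Among all protein-coding genes the share was 28.5% with 1 or 2 TSSs and 62.3% with 3 or more. The core processing genes drosha, pasha, Dcr-1 and loqs had none in the reproducible list, and drosha had one in the top list of replicate 3. Those of export and silencing did: Ranbp21, which exports hairpin precursors (435; 253 and 185), AGO1 (717; 272 and 428) and gw, the partner of AGO1 in silencing (418; 183 and 250). Among genes that modify small RNAs, Nbr, which trims miRNA ends, had 248 and Tailor, which adds uridines to hairpins, had 560, but both shared the summit with a neighbour, Noc2 and alphaTub84B. Of the cap-binding and decay genes, Ars2 (346), Cbp20 (414), Cbp80 (179), Not1 (226), twin (422), DCP1 (168) and DCP2 (304) were occupied and me31B, Ge-1 and pcm were not. No peak of replicate 2 overlapped those of Ars2, Not1 and DCP2, which measured 216, 146 and 136 in replicate 3. The DCP1 peak measured 42.1 in replicate 2 and 128 in replicate 3. The top list of replicate 2 had a summit at a start of Not1 and DCP2, but not of Ars2 or DCP1. Of the 12 summits, all but those of gw and Ars2 also lay within 1000 bp of a TSS of another protein-coding gene.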

How the data were processed

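Per the deposited manifests, the authors called a peak list per replicate and lists on both replicates, the replicates against the same control file. The signal of each peak is the authors' own value, deposited without a stated scale. For the aligner, the peak caller and the reproducibility threshold, nothing is given in the sources used here. Relaxed lists held 30000 peaks each, and depth is unknown. The lists in build dm3 were not used.

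Summits in dm6 were set against the Ensembl annotation of BDGP6.54, release 115, by distance to the nearest hairpin end, counting from 1. In that annotation the hairpin biotype belongs to transcripts. Replicate signal is that of the strongest overlapping relaxed peak, and summits within 100 bp counted as shared. Shares have 95% Wilson intervals (scipy 1.17.1, Python 3.11.15), which cover counting error only and treat neighbouring loci as independent. No test was run, since there was 1 group. The distance count and locus joining were tested on simulated data.

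The members, lists and motifs were chosen with earlier results of these data known. Every locus with a summit within 1000 bp was named and 12 described in full, beside 28 well known miRNA genes and the pathway genes. The starts of host transcripts were singled out after values were seen. Alternatives were each replicate alone, peaks in both top lists, the stronger 2933 peaks, other distances, peak edges, other locus joining, other host definitions and wider motif windows.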

Additional observations from a re-analysis of the deposited data

How the results depend on the processing

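No paired analysis was possible because there was 1 group and no test. Leaving out 1 replicate gave 11.3% to 17.2% of loci with a summit within 1000 bp, 43.3% to 43.8% within 5000 bp, 7.14% to 17.9% of intergenic loci, 10.9% to 17.3% of hosted loci, 10.0% to 15.4% of single hairpins, 5.91% to 6.90% for distal summits, 52.6% to 68.4% of pathway genes and 24.3% to 43.2% of non-coding hosts. Requiring peaks in both top lists gave 8.87% of loci at 1000 bp, 34.0% at 5000 bp, 7.14% of intergenic loci, 8.33% of hosted loci and 8.08% of hairpins. The stricter list gave 8.87%, 30.0%, 7.14% of intergenic loci and 8.08% of hairpins. At 500 bp the shares were 8.37% of loci, 8.33% of hosted loci and 2.96% for distal summits, and at 2000 bp 23.2% and 21.8% of hosted loci. These alternatives use fewer peaks or another distance, so they lower or raise the background share too. The alternatives for non-coding hosts were chosen after seeing the data. In the wider windows, 150 bp to either side, GTCT was in 66.7% of peaks near hairpins, against 70.3% of all peaks. There GAGAG was in 39.4% of peaks near hairpins and 57.1% (32.6 to 78.6) at host starts, against 34.9% of all peaks. Both GAGAG intervals then included the share of all peaks. The GC-rich forms were in 42.4% and 64.3% (38.8 to 83.7), against 38.2%. Unknown depth limits what absence of a summit means.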
